A study of Rattus norvegicus with 9 samples.

Results

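The data concern 10 genes that mark vascular endothelial cells or steer the growth of new vessels, Pecam1, Cdh5, Vwf, Kdr, Flt1, Tek, Vegfa, Angpt1, Angpt2 and Nos3, in the left ventricle of the rat after myocardial infarction (MI). The choice was by gene name and known role, and 9 of the 10 were matched among the 35843 rows of the expression table. Pecam1 was not analysed here. All 9 passed the filter on low values in each of the 3 comparisons.

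RNA was sequenced from 3 Sprague-Dawley rats in each of 3 groups at day 28, and the labels call the samples of a group biological replicates. Groups MI and MI + DAPA (1st d) consisted of adult male rats whose left anterior descending coronary artery was ligated, and group Sham had the same operation without the ligation. Groups Sham and MI received saline and group MI + DAPA (1st d) received dapagliflozin (DAPA), an inhibitor of the sodium-glucose cotransporter SGLT2, at 1 mg/kg, each by daily gavage for 28 days from the first day. According to the study's methods, molecular experiments mainly used the border of the infarct with the scar removed, and group Sham gave tissue from the matching place. For the RNA-seq the methods name only the left ventricle. The study's results speak of normal myocardium for Sham and of infarct myocardium for the ligated groups. Whether the infarct or its border was sampled is thus not certain. The comparisons address how vascular genes stood in the ventricle after infarction, and whether they differed with early dapagliflozin.

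Endothelial cells line all blood vessels and hold together through VE-cadherin, the product of Cdh5, and PECAM-1. Vascular endothelial growth factor A (Vegfa), which hypoxic and working muscle cells release, acts on endothelial cells mainly through VEGF receptor 2 (Kdr), while VEGF receptor 1 (Flt1) binds it tightly and largely serves as a decoy. Angiopoietin-1 (Angpt1), from cells around the vessel, activates the receptor Tie2 (Tek) and keeps vessels quiet. Angiopoietin-2 (Angpt2), from activated endothelium, mostly opposes it. Nos3 encodes endothelial nitric oxide synthase, which relaxes vessels.

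The upstream sequence is shown for the 3 members that had a RefSeq promoter window outside the gene model, Vegfa, Kdr and Nos3, which also had the largest falls after infarction in the deposited values. The sequences are from RefSeq on GRCr8, 5′ to 3′ on the gene's strand, and end where the RefSeq gene model begins. Capitals mark motifs searched on both strands: CCACCC, the core bound by Krüppel-like factors (KLF) such as the flow-responsive KLF2 and KLF4, the GC box GGGCGG, and GCGTG, which with ACGTG forms the core of the element bound by hypoxia-inducible factors. The Nos3 sequence lies on the minus strand of chr4:11706605-11706831, that of Vegfa on the plus strand of chr9:22452604-22452853 and that of Kdr on the plus strand of chr14:32571813-32572030.
Nos3: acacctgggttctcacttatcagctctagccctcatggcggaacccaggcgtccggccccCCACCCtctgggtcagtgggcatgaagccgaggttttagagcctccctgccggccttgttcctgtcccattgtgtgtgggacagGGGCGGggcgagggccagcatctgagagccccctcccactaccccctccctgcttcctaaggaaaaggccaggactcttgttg
Vegfa: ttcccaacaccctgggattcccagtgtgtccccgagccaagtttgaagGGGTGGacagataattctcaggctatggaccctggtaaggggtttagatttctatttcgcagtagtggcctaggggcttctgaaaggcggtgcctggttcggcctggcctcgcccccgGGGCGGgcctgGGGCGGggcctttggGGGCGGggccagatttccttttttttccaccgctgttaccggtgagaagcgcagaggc
Kdr: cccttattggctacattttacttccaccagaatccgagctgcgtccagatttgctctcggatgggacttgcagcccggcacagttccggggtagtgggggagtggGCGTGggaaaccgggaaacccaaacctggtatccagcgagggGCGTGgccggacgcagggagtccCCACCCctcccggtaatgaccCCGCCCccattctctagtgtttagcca
Each sequence held a CCACCC match, and among the 250 bases before the start of 33469 rat promoters 26.1% did. Each also held at least 1 GC box, which 30.5% of these promoters had, and Vegfa held 3. Kdr held 2 matches of GCGTG, a form searched after the sequences were seen and held by 25.9% of promoters. None held ACGTG (16.6%) or the ETS letters CAGGAAG (10.2%) or CCGGAAG (7.27%). A match is a stretch of letters and was not measured as a binding site here, and the absence of these letters in so short a window says nothing about a factor. The 3 sequences were 60.4% to 63.0% G or C, against a median of 51.2% over the promoters. Flt1 was matched too, but its window lay inside the gene model and is not shown.

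The depth differed by group in a way that bears on every level below. Each library had between 13597239 and 17210909 recovered reads, but 61.1% to 66.9% of them came from the mitochondrial genome in group Sham, 7.07% to 19.1% in group MI and 17.5% to 32.0% in group MI + DAPA (1st d). Sham libraries thus had 5702454 to 6570698 reads on all other genes and the ligated groups 11440726 to 13171891. The deposited FPKM (fragments per kilobase of gene, scaled for library size) were scaled so that the typical gene is level between groups: the median log2 difference over all genes tested was -0.01 in MI vs. Sham. When libraries were scaled to all their reads instead, that median moved to 0.92, and when each was rescaled to the same sum over all genes it moved to 1.30. A fold change below thus refers to the deposited scale, on which the typical gene is level, and the other scalings are given where a direction or a call depends on them.

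In group Sham, Vegfa and Cdh5 were the most abundant members, with mean FPKM of 184 ± 49.0 and 153.5 ± 37.4 (SD, n = 3), and their ranges overlapped. Nos3, Kdr, Flt1, Tek and Vwf followed between 60.2 and 43.1, each overlapping the next. Angpt2 at 9.24 ± 2.74 and Angpt1 at 0.845 ± 0.651 stood below all of them. After infarction the order changed. In group MI, Cdh5 led at 55.8 ± 5.25 and Vwf came next at 36.8 ± 7.97, apart from each other. Vegfa was at 28.6 ± 3.61, and Tek, Angpt2, Flt1, Kdr and Nos3 formed a chain of overlapping ranges from 22.0 down to 13.0. In group MI + DAPA (1st d) the order of the first 4 was as in group MI, but each of the 8 higher members overlapped its neighbour, so only Angpt1 at 1.91 ± 1.00 stood apart.

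**Figure D1:**
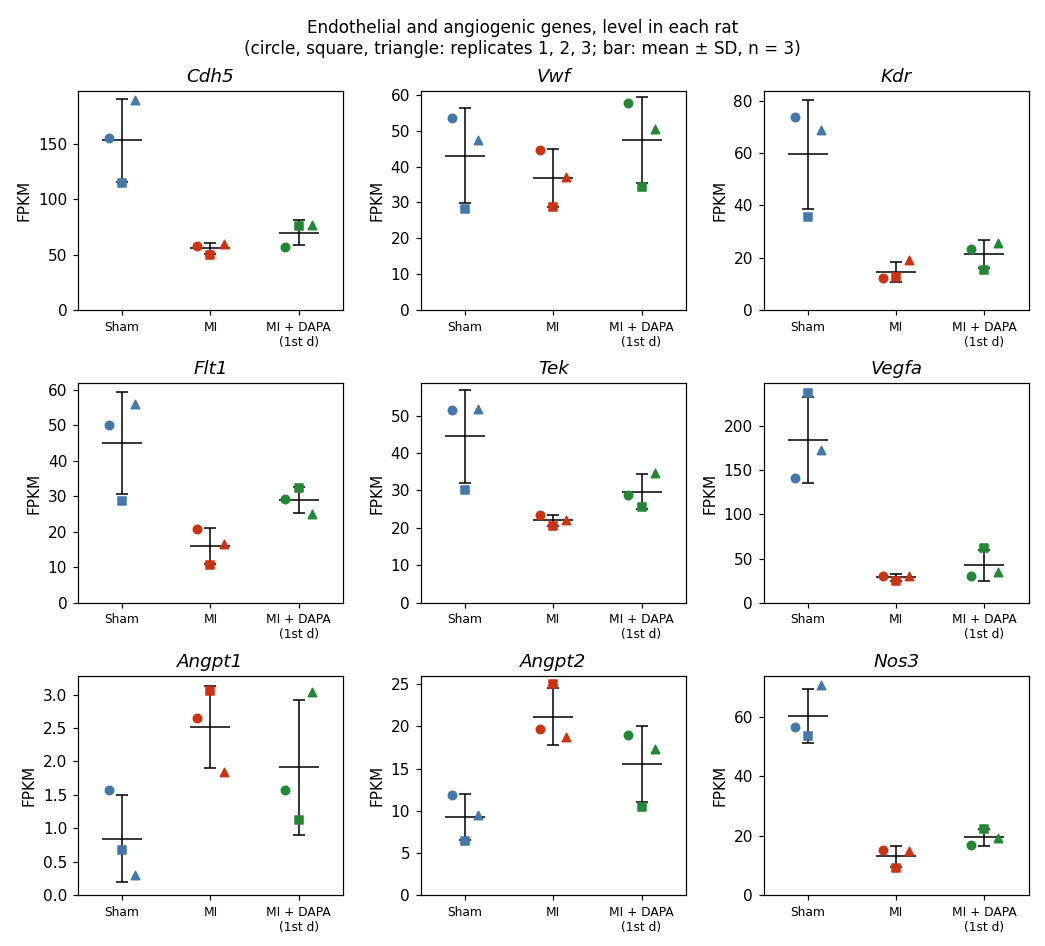
FPKM of the 9 members in each rat of the 3 groups, 1 panel a gene with its own axis from 0. Symbols are the 3 rats of a group and bars the mean ± SD. In Vegfa the Sham rats sit between 142 and 238 and the MI rats between 24.4 and 30.6, whereas the 3 groups of Vwf overlap.

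Relative to the typical gene, the infarcted ventricles held less VE-cadherin, VEGF receptor, Vegfa and Nos3 RNA than group Sham and more Angpt2 RNA. In MI vs. Sham 5 of 9 members were called lower and 1 higher, where a call is an unadjusted limma p under 0.05 with an absolute log2 fold change over 1. Of all 13485 genes tested, 10.3% were called lower and 12.1% higher. The members counted 2 lower and 2 higher when libraries were scaled to all reads, and 1 lower and 3 higher when rescaled to the same sum over all genes, with medians 1.24 and 1.18 below the typical gene. Of all 13535 genes tested with all reads, 290 were called lower and 6099 higher. With the same sum it was 198 and 9214 of 14165. On the deposited scale the median of the members was -1.42 on the log2 scale against -0.01 over all genes. All 6 also had a Benjamini-Hochberg adjusted limma p under 0.05, and by that threshold with the same fold 9.93% of all genes were lower and 11.5% higher. In 6 members each MI rat lay below each Sham rat and in 2 each MI rat lay above, patterns that 27.5% and 27.1% of all genes showed. In bulk tissue, fewer endothelial cells and less RNA per endothelial cell cannot be told apart.

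The junction gene Cdh5 was at an FPKM of 155, 115 and 190 in Sham rats 1, 2 and 3. It was at 58.0, 49.8 and 59.6 in the MI rats. All MI rats were below all Sham rats, and the MI mean was 36.4% of the Sham mean. Cdh5 fell by 1.42 on the log2 scale (SE 0.20, limma, adjusted p = 0.0029), a difference that stayed 1.18 below the typical gene but read 0.12 when libraries were rescaled to the same sum over all genes.

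Vwf, the clotting protein von Willebrand factor that endothelial cells store and secrete, behaved unlike Cdh5. Its FPKM was 53.6, 28.1 and 47.4 in the Sham rats and 44.6, 28.7 and 37.2 in the MI rats. The groups overlapped throughout. The difference was -0.19 (95% interval -0.84 to 0.45, limma, adjusted p = 0.611), while the scalings to all reads and to the same sum gave 0.89 and 1.33, the last called higher, or -0.03 and 0.03 relative to the typical gene. Within a rat, Vwf was 0.244 to 0.345 times Cdh5 in group Sham and 0.576 to 0.769 times in group MI.

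Among the receptors, Kdr, which carries most of the VEGF signal, showed the largest difference. Its FPKM was 73.9, 35.6 and 68.8 in the Sham rats and 12.1, 12.6 and 19.2 in the MI rats. The groups did not overlap although Sham rat 2 was well below the other Sham rats. Kdr fell by 1.91 (SE 0.31, limma, adjusted p = 0.00427) to 24.6% of its Sham mean. It was not called with libraries scaled to all reads (-0.84) or to the same sum (-0.42, unadjusted limma p of 0.188), where it lay 1.77 and 1.72 below the typical gene.

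Flt1, the decoy receptor, was at 50.1, 28.6 and 56.0 in the Sham rats. In the MI rats it was at 20.8, 10.7 and 16.5. Again Sham rat 2 was the lowest of its group and still above every MI rat. Flt1 fell by 1.43 (SE 0.32, limma, adjusted p = 0.0126), although with libraries rescaled to the same sum over all genes the difference was 0.070. The ratio of Kdr to Flt1 was 1.47, 1.24 and 1.23 in the Sham rats and 0.582, 1.18 and 1.16 in the MI rats, where MI rat 1 was by far the lowest.

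Tek, the angiopoietin receptor, was at 51.5, 30.2 and 51.7 in the Sham rats and at 23.4, 20.4 and 22.2 in the MI rats, without overlap. Its difference of -0.95 (SE 0.23, limma, adjusted p = 0.0162) was just inside the fold threshold, so it was not called. Without Sham rat 2 it was -1.20 and called. With the mitochondrial genome left out it was -1.003 (unadjusted limma p of 0.00487) and also called. Its sign turned under the scalings to all reads (0.13) and to the same sum (0.57), where it lay 0.79 and 0.73 below the typical gene.

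Of the ligands, Vegfa had the largest difference of all members. Its FPKM was 142, 238 and 173 in the Sham rats and 30.6, 24.4 and 30.6 in the MI rats. The lowest Sham rat was thus far above the highest MI rat. Vegfa fell by 2.62 (SE 0.22, limma, adjusted p = 0.000953) to 15.5% of the Sham mean, and it was lower in each of the 5 scalings, by 1.09 in the smallest.

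The angiopoietins lay on the other side. Angpt2 was at 11.9, 6.38 and 9.48 in the Sham rats and at 19.7, 25.1 and 18.8 in the MI rats, without overlap. It rose by 1.14 (SE 0.23, limma, adjusted p = 0.00924), and without Sham rat 2, its lowest, the difference was 0.92 and no longer called. Angpt1 was the member with the fewest reads, 5 to 104 a library. Its FPKM was 1.57, 0.670 and 0.300 in the Sham rats and 2.65, 3.05 and 1.85 in the MI rats. The groups did not overlap, and the difference of 0.97 (SE 0.30, limma, adjusted p = 0.0391) was just short of the fold threshold. At such low levels the added 1 in log2(FPKM + 1) shrinks a difference: with 0.1 added it was 1.68 and called. Angpt1 was also called with the mitochondrial genome left out (1.31), all reads (1.53) or the same sum (1.91), and by voom on recovered reads (1.74). Scaled by the median ratio between libraries it was 0.98 and not called.

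Nos3, the source of endothelial nitric oxide, was at 56.5, 53.4 and 70.6 in the Sham rats and at 15.1, 9.07 and 14.7 in the MI rats. No MI rat came near the Sham range. Nos3 fell by 2.15 (SE 0.22, limma, adjusted p = 0.00125) to 21.6% of the Sham mean, and it was lower under each of the 5 scalings, by 0.66 in the smallest, where it was not called.

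**Figure D2:**
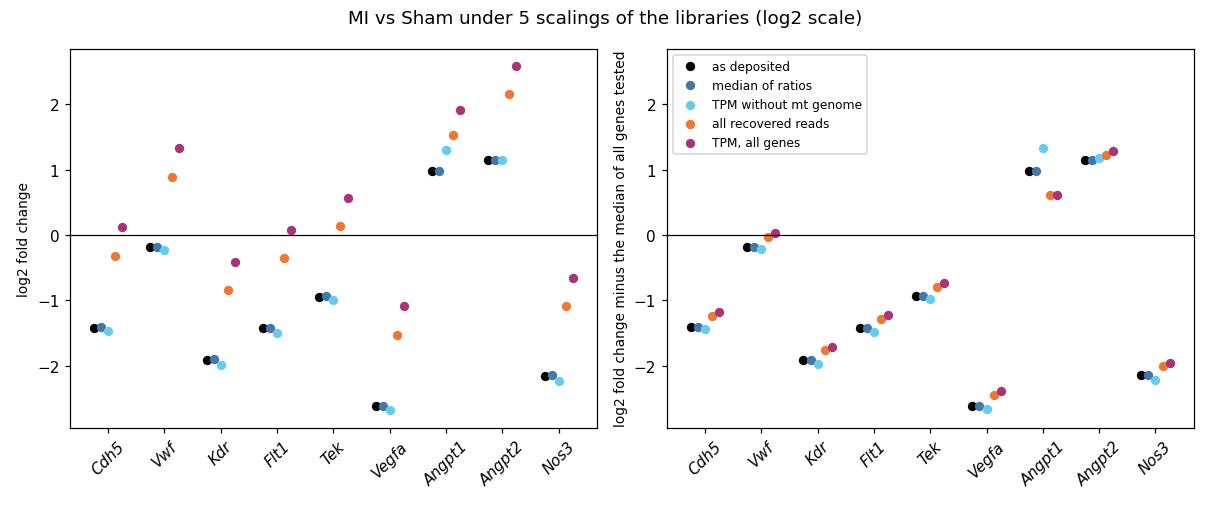
Log2 fold change of the 9 members in MI vs. Sham under 5 scalings of the libraries (left) and the same after subtracting the median of all genes tested (right). Scaling to all reads or to the same sum over all genes (TPM, transcripts per kilobase set to a fixed total) moves every member up on the left, taking Cdh5 to -0.32 and 0.12, while on the right each gene's 5 points lie close together, except those of Angpt1 from 0.61 to 1.33, and Vegfa stays lowest between -2.39 and -2.67.

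With early dapagliflozin, no member was called in MI + DAPA (1st d) vs. MI in either direction by limma, or by voom on the recovered reads, and 1.11% of all 13251 genes tested were called lower and 0.951% higher. The smallest adjusted limma p over all genes was 0.558, so no gene tested passed the adjusted threshold. At an unadjusted limma p under 0.05, 517 genes were lower and 608 higher. Flt1, Tek and Nos3 were the members past that unadjusted threshold, all of them higher, where 4.59% of all genes were higher and 3.9% lower. In the same 3 members every treated rat lay above every MI rat, a pattern that 6.63% of all genes showed, while no member and 7.16% of all genes had every treated rat below every MI rat. The median of the members was 0.41 against -0.02 over all genes.

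Flt1 showed the largest difference with treatment. Its FPKM was 29.2, 32.4 and 25.0 in the treated rats against 10.7 to 20.8 in group MI. The lowest treated rat was above the highest MI rat, and the treated mean was 181% of the MI mean. The difference was 0.85 (SE 0.24, 95% interval 0.28 to 1.43) with an unadjusted limma p of 0.0102 and an adjusted p of 0.558. Without MI rat 1 it was 1.06 and passed the fold threshold.

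Nos3 was at 16.7, 22.1 and 19.3 in the treated rats against 9.07 to 15.1 in group MI, a difference of 0.57 (SE 0.22, unadjusted limma p of 0.0368, adjusted p = 0.558). Tek was at 28.7, 25.7 and 34.8 against 20.4 to 23.4, a difference of 0.41 (SE 0.15, unadjusted limma p of 0.0313, adjusted p = 0.558). In both genes the ranges were close but did not meet. With libraries scaled to all reads Nos3 was at 0.36 (unadjusted limma p of 0.149) and Tek at 0.19 (0.402), and with the same sum they were at 0.23 (0.415) and 0.056 (0.848). Both also missed an unadjusted 0.05 with the mitochondrial genome left out (0.0839 and 0.137), while Flt1 missed it with the same sum alone of these 3 scalings (0.51, unadjusted limma p of 0.0811).

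The other members overlapped between treated and MI rats. Kdr was at 23.5, 15.2 and 25.5 with treatment, and its difference was 0.52 (95% interval -0.08 to 1.12). Cdh5 was at 56.8, 76.0 and 76.9, where treated rat 1 was inside the MI range, and its difference was 0.31 (-0.10 to 0.72). Vwf was at 57.7, 34.2 and 50.4, with a difference of 0.35 (-0.24 to 0.93). The signs of Cdh5 and Vwf turned, to -0.053 and -0.014, when libraries were rescaled to the same sum over all genes.

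Vegfa was at 30.2, 62.4 and 34.2 with treatment, where treated rat 2 was far above the others. Its difference was 0.48 (-0.18 to 1.15), and 0.17 without that rat. Both angiopoietins had lower means than in group MI. Angpt2 was at 18.9, 10.4 and 17.4 with a difference of -0.45 (-1.02 to 0.12), and Angpt1 was at 1.57, 1.12 and 3.04 with a difference of -0.31 (-0.98 to 0.35).

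Set against group Sham, 4 members were called lower in group MI + DAPA (1st d) and none higher, where 8.16% of all 13359 genes tested were called lower and 9.54% higher. The same 4 had an adjusted limma p under 0.05, which 7.49% of all genes had with a fall past the fold threshold and 8.74% with a rise. This comparison shares the treated rats with the previous comparison and the Sham rats with MI vs. Sham, so the values are given side by side only. Vegfa stood at 22.9% of its Sham mean with treatment and 15.5% in group MI. Nos3 stood at 32.2% and 21.6%, Kdr at 36.0% and 24.6%, and Cdh5 at 45.5% and 36.4%. These 4 were called (log2 fold changes -2.14, -1.59, -1.39 and -1.11), although Cdh5 lost its call without Sham rat 3 (-0.94) or treated rat 1 (-0.97). With libraries rescaled to the same sum over all genes none of the 4 was called lower (Vegfa -0.97, Nos3 -0.43, Kdr -0.24 and Cdh5 0.071). Vwf, Angpt1 and Angpt2 were then called higher, as these 3 were with all reads, where Vegfa alone was called lower. Of all 13468 genes tested with the same sum, 154 were called lower and 6683 higher. With all reads it was 233 and 4433 of 13050. Flt1 stood at 64.3% of Sham with treatment and 35.6% in group MI, and Tek at 66.8% and 49.4%. Neither was called with treatment: the difference from Sham was -0.57 for Flt1 (unadjusted limma p of 0.0593) and -0.54 for Tek (0.0581). Angpt2 stood at 169% of Sham with treatment and 229% in group MI, and its treated and Sham rats overlapped. Its difference from Sham was 0.69 (SE 0.28, unadjusted limma p of 0.0416, adjusted p = 0.106). Angpt1, at 226% and 298%, had a difference of 0.66 (95% interval -0.17 to 1.49) and Vwf, at 110% and 85.5%, of 0.16 (-0.52 to 0.83), so for neither did the interval leave 0 out. Whether the distance from Sham differed between the ligated groups is the MI + DAPA (1st d) vs. MI comparison itself.

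**Figure D3:**
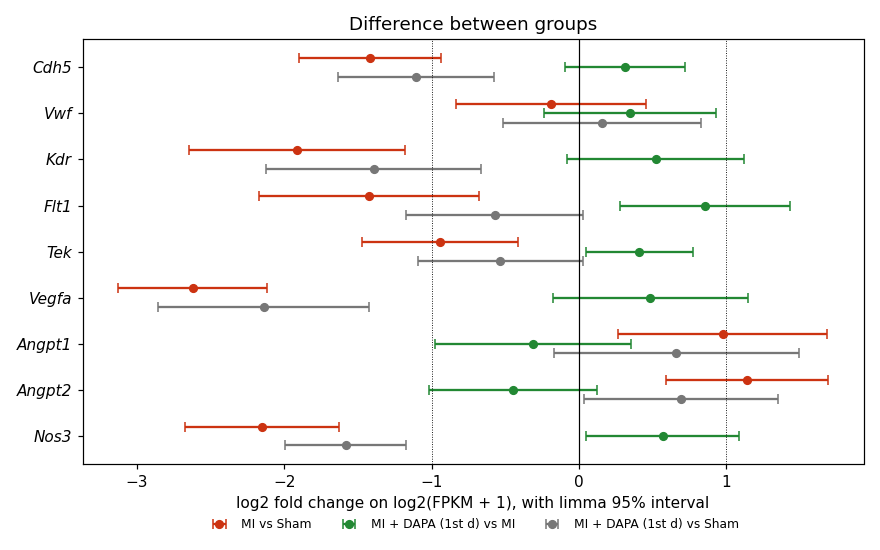
Log2 fold change on log2(FPKM + 1) of the 9 members in the 3 comparisons, with the 95% interval of limma. Dotted lines mark the fold threshold of 1. In MI + DAPA (1st d) vs. MI (green) the intervals of Flt1, Tek and Nos3 lie above 0, and no point reaches 1. The bars use the deposited scaling.

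A level set against Cdh5 within the same rat depends little on how libraries were scaled, so each member was also expressed as its log2(FPKM + 1) minus that of Cdh5. The added 1 still matters for the low Angpt1, whose difference in MI vs. Sham was 3.11 with 0.1 added. With 3 rats against 3 the exact permutation test cannot give a p below 0.1, so no such difference can pass 0.05. Of the 24 comparisons (8 members, 3 pairs of groups), 13 showed no overlap. These were 6 between MI and Sham rats and 7 between treated and Sham rats, with 0 between treated and MI rats. The share of all genes without overlap on this scale is not given here. Cdh5 itself was lower than in Sham, so the typical gene rose against it. With libraries scaled to Cdh5, the median of all genes was 1.18 in MI vs. Sham. It was 0.93 in MI + DAPA (1st d) vs. Sham. Of 13585 genes tested in MI vs. Sham, 205 were then called lower and 8052 higher. In MI vs. Sham the difference was 2.56 for Angpt2 and 2.39 for Angpt1, so both angiopoietins were more abundant relative to Cdh5, as were Vwf at 1.23 and Tek at 0.47. Against the median of 1.18 for all genes, Vwf was thus close to the typical gene and Tek was below it. It was -1.20 for Vegfa and -0.73 for Nos3, which were less abundant relative to Cdh5. Each of these 6 had the smallest exact two-sided permutation p of 0.1, which was 0.185 after Benjamini-Hochberg adjustment over the 24. Kdr was at -0.50 (exact permutation p = 0.2) and overlapped.

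Flt1 followed Cdh5 in MI vs. Sham, with a difference of -0.0085 between means of -1.79 ± 0.34 and -1.78 ± 0.18 (SD, n = 3). With treatment it stood at -1.24 ± 0.32. Its treated rats did not overlap the Sham rats (difference 0.53, exact permutation p = 0.1, the smallest possible) but overlapped the MI rats (0.54, exact permutation p = 0.2). The 0.53 from Sham was below the median of 0.93 for all genes with libraries scaled to Cdh5. Relative to Cdh5 no other member had a group of treated rats apart from the MI rats either.

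**Figure D4:**
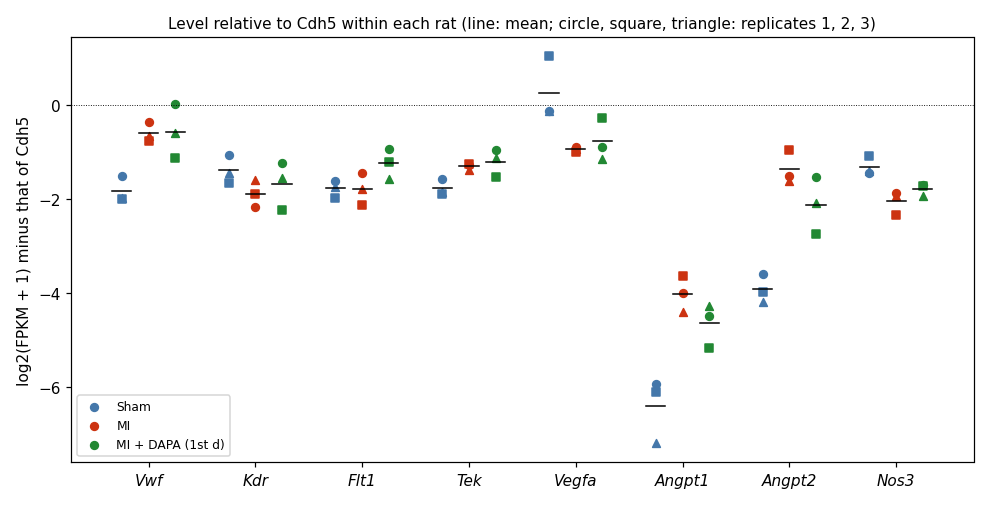
Level of 8 members relative to Cdh5 in each rat, as log2(FPKM + 1) minus that of Cdh5, where 0 is equal abundance. Lines are group means. The mean of Angpt2 is -3.92 for Sham and -1.36 for MI rats, that of Vegfa 0.26 and -0.94, and Flt1 has nearly the same mean in both.

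The genes around the members were read from fixed lists. Their counts with the same sum stand beside 198 lower and 9214 higher of all 14165 genes in MI vs. Sham. Those with all reads stand beside 290 and 6099 of 13535. Of 27 further endothelial genes tested, 15 were called lower in MI vs. Sham and 3 higher, with a median of -1.22 that stayed 0.98 below the typical gene when libraries were rescaled to the same sum over all genes, where the count was 3 lower and 8 higher. The 3 with the smallest p were Rasip1, a regulator of lumen formation (172 ± 21.5 FPKM in Sham, 39.3 ± 3.28 in MI), the adhesion molecule Icam2 (119 ± 2.79 and 35.0 ± 2.80) and Egfl7, which endothelial cells secrete (505.1 ± 38.2 and 86.7 ± 21.0). Their log2 fold changes were -2.10, -1.74 and -2.55. The genes called higher were Cd34, which is also found on stromal cells (36.0 ± 11.4 and 102.5 ± 27.4), Plvap of fenestrated and venous endothelium (2.69 ± 2.72 and 47.9 ± 18.7) and Mmrn1 (4.62 ± 0.617 and 31.4 ± 13.3), which platelets and lymphatic endothelium also hold. In MI + DAPA (1st d) vs. MI 1 of the 27 was called, Mmrn1 at -1.03 (limma, adjusted p = 0.558), and 23 of the 27 had a positive difference. The list median was 0.32 against -0.02 over all genes. With the same sum over all genes the latter moved to -0.34, so these signs may depend on the scaling. The smallest unadjusted p of the list in that comparison was that of Podxl (29.7 ± 7.01 to 50.1 ± 1.75, difference 0.77, unadjusted limma p of 0.00592, adjusted p = 0.558).

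Of 7 other genes of the VEGF family tested, 0 were called lower and 1 higher by limma at the unadjusted threshold with the fold, and 1 was lower at the unadjusted p alone. The higher count was 3 with all reads and 5 with the same sum. Vegfd, a ligand of the lymphatic receptor Flt4, rose from 5.04 ± 1.62 to 30.7 ± 8.58 (log2 fold change 2.40, limma, adjusted p = 0.0015). Vegfb, which binds Flt1, was at 25.8 ± 6.36 in Sham, 30.9 ± 10.8 in MI and 51.5 ± 15.2 with treatment, where its difference from MI was 0.73 (unadjusted limma p of 0.0568). Of 7 tested genes of the angiopoietin and Tie group, 4 were called higher (7 with the same sum), among them Angptl2 (4.10 ± 0.693 to 55.8 ± 17.5) and Svep1 (0.321 ± 0.218 to 3.52 ± 1.37). The orphan receptor Tie1, the partner of Tek, was the 1 called lower (96.6 ± 10.7 to 43.5 ± 6.60). In MI + DAPA (1st d) vs. MI neither group had a call by limma and voom called 1 lower, while Svep1, lower, was the 1 gene of both at an unadjusted limma p under 0.05 (0.00908).

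Notch and apelin genes, which act downstream of or beside Kdr in choosing the leading cell of a sprout, were called lower in 6 of 14 and higher in 0 in MI vs. Sham, with 1 higher at the unadjusted limma p alone. Under rescaling to the same sum over all genes the count was 0 lower and 5 higher, with a median still 0.70 below the typical gene. Dll4, the Notch ligand that VEGF induces through Kdr, fell from 41.6 ± 2.59 to 8.20 ± 1.51 (log2 fold change -2.22, limma, adjusted p = 0.000953), and Notch4 fell from 52.2 ± 10.3 to 9.93 ± 2.95. Dll4 was also the 1 gene of the list called with treatment by limma, and voom called it and Esm1 higher. It was at 17.3 to 17.6 in the treated rats against 6.88 to 9.85 in the MI rats, a difference of 1.02 (SE 0.15, unadjusted limma p of 0.000292, adjusted p = 0.558), and it was not called when libraries were scaled to all reads or to the same sum. Of 12 genes of the nitric oxide pathway 3 were called lower and 1 higher, or 1 and 5 with the same sum over all genes. Nostrin and Nosip, both partners of the Nos3 protein, fell by 2.28 and 1.50, and so did Cav1, the caveolin that holds it inactive, by 1.16, while Ddah1, which clears an inhibitor of the enzyme, rose by 1.74. No gene of this list was called with treatment by limma or by voom, and 0 had an unadjusted limma p under 0.05.

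Vegfa is itself a gene that hypoxia induces. Of 14 other such genes tested, 3 were called higher in MI vs. Sham and 0 lower, with 3 lower at the unadjusted limma p alone. The glucose transporter Slc2a1 rose from 2.01 ± 0.851 to 6.90 ± 0.575 and the collagen hydroxylase P4ha1 from 12.6 ± 1.13 to 35.1 ± 9.13. Of 13 other angiogenic factors 2 were called higher, Pdgfc (log2 fold change 1.11) and the endothelin receptor Ednrb (1.12). Of 11 inhibitors of angiogenesis 5 were called higher, with Serpinf1 at 3.14, Timp3 at 2.03 and Col18a1, the source of endostatin, at 1.63, and Plxnd1 was called lower at -1.30. Of 10 genes of endothelial activation 4 were called higher, among them Vcam1 at 2.29 and Plau at 2.26, and F8 lower at -1.47. These 4 counts of higher genes rest on the scaling: with the same sum over all genes they were 11, 11, 9 and 8, and with all reads 11, 8, 8 and 6. With treatment none of these 4 lists had a call by limma and voom called 1 gene higher, while 4 genes were lower and 1 higher at an unadjusted limma p under 0.05.

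**Figure D5:**
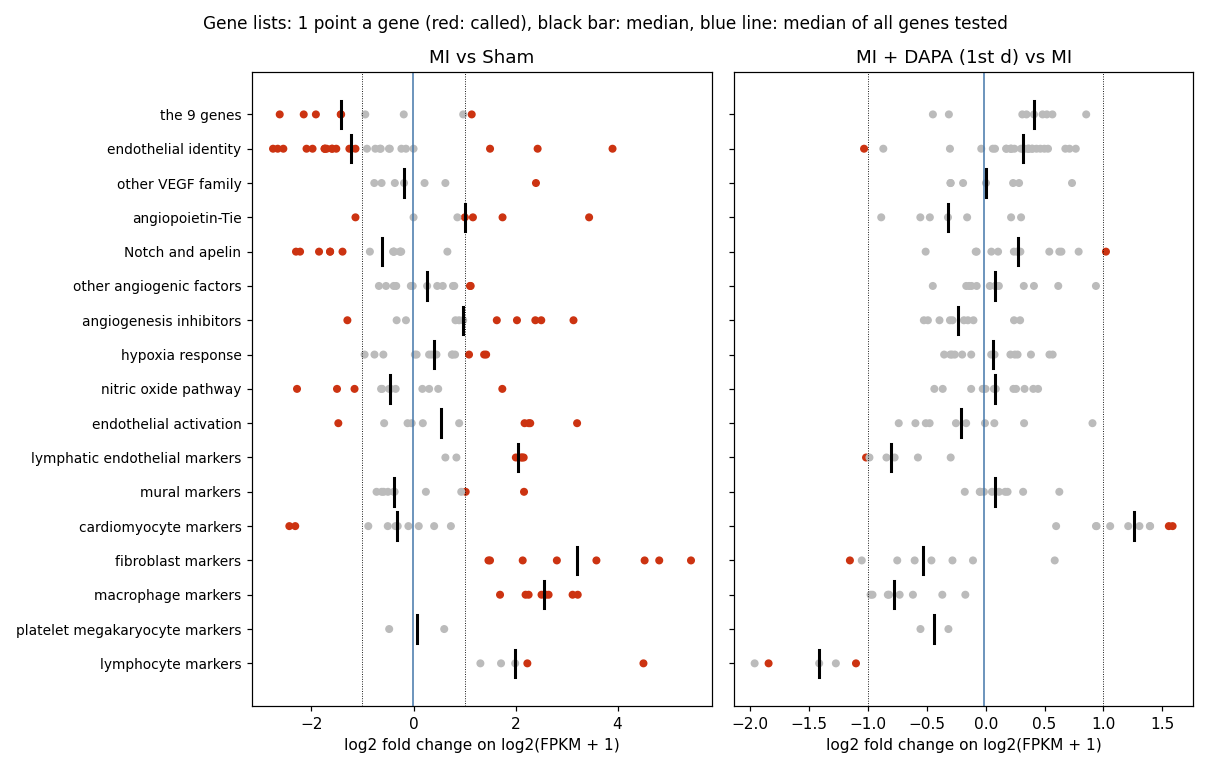
Log2 fold change of each gene of the 9 members and of 16 gene lists in MI vs. Sham (left) and MI + DAPA (1st d) vs. MI (right), with called genes in red, the list median as a black bar and the median of all genes as a blue line. On the left the members and the endothelial list have medians of -1.42 and -1.22 at the deposited scaling, and the fibroblast and macrophage lists lie wholly above 1.

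Markers of some other cell types differed between the groups. The summed markers of fibroblasts, macrophages, lymphatic endothelium and lymphocytes were higher in each MI rat than in each Sham rat. Those of cardiomyocytes, mural cells and platelets overlapped between these groups. The summed FPKM of 8 fibroblast markers was 726 to 1107 in Sham, 4744 to 7933 in MI and 3428 to 5967 with treatment, and all 8 were called higher in MI vs. Sham, with Col1a1 called lower with treatment (-1.15). The 8 macrophage markers summed to 65.9 to 161, 589 to 1141 and 320 to 680, again with 8 called higher. The 10 cardiomyocyte markers summed to 5406 to 8022, 1244 to 6044 and 4796 to 10292, with 2 called lower in MI vs. Sham and 2 higher with treatment, Tnni3 and Myl2. The 6 lymphatic endothelial markers summed to 125 to 280, 475 to 1342 and 350 to 659, with 4 called higher and Lyve1 called lower with treatment (-1.02). The 10 mural cell markers summed to 527 to 1544, 801 to 1090 and 728 to 1066, with Pdgfrb and Rgs5 called higher in MI vs. Sham. Yet 6 of the 10 had a negative difference there, and the list median was -0.38. At an unadjusted limma p under 0.05 alone, 2 were lower and 3 higher. The 8 platelet markers summed to 63.2 to 105, 103 to 161 and 72.0 to 97.1, almost all of it Pf4, with 2 tested, none called and Gp1bb at 0 in all 9 rats. The 7 lymphocyte markers summed to 4.61 to 14.5, 54.3 to 252 and 29.3 to 58.2, with 2 called higher in MI vs. Sham and both, Cd4 and Cd3e, lower with treatment. In MI + DAPA (1st d) vs. MI all 10 cardiomyocyte markers had a positive difference (median 1.26). All 8 macrophage markers (median -0.78), all 6 lymphatic (-0.81) and the 5 lymphocyte markers tested (-1.42) had a negative one. Fibroblast markers had 7 negative and 1 positive (-0.53), and mural markers 4 and 6 (0.08). Voom also called Reln, Cd163 and Mrc1 lower there. No marker list was at 0 in any group, and the part of these cell types in the members' differences was not tested. All these sums are at the deposited scale, where the total FPKM of all genes differed by group. That total was 1401347 to 1746107 in Sham, 484156 to 574023 in MI and 523207 to 803360 with treatment. With libraries set to the same total, the Sham sums would be smaller against those of the ligated groups. The order of Sham and MI for the cardiomyocyte and mural markers may thus depend on the scaling.

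The genes whose pattern over the 9 rats was most like a member were sought among 14157 genes by Pearson's r of log2(FPKM + 1). The 9 rats share the contrast between groups, so r near 1 is common and describes mainly that contrast. Nos3 was closest to the mitochondrial gene AY172581.1, the Notch ligand Jag2 and Afap1l1 (r = 0.997, 0.996 and 0.995). Vegfa was closest to Paxbp1, Slc22a15 and Tsnax (0.996, 0.994 and 0.994) and Kdr to Palmd, Nrarp and Cbx7 (0.984, 0.984 and 0.981). Flt1 was closest to AABR07061382.2, Podxl and Mecom (0.981, 0.971 and 0.970), Tek to Tmcc3, Rnf144a and a locus without a gene name (0.986, 0.986 and 0.984), and Cdh5 to AABR07001382.1, Sos1 and Pparg (0.993, 0.991 and 0.991). Angpt2 was closest to Bzw1, Tyrobp and RGD1311946 (0.986, 0.982 and 0.981) and Angpt1 to Wwtr1, AABR07044375.1 and Shisa5 (0.976, 0.974 and 0.968). Vwf, whose groups overlapped, was closest to Ass1 and Spry4 (0.973 and 0.966).

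The counting was by gene, so the soluble form of Flt1 and the splice forms of Vegfa are summed in these values. In RefSeq on GRCr8 the span of Mcph1 holds all of Angpt2, and Atg9b overlaps the end of Nos3 by 10 bases. Both neighbours were low, Mcph1 at an FPKM of 0.035 to 0.691 and Atg9b at 0 to 0.316. Flt1 is overlapped by LOC120095883 (17731 bases), LOC134481311 (7248) and LOC102547586 (4457), and Angpt1 by LOC102547184 (348). No FPKM was matched to these loci, so their levels are not known here.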

How the data were processed

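Poly-A selected RNA of 9 rat left ventricles was read as paired ends. The authors deposited FPKM values for 35843 genes, 1 column a rat, and every column was used (0 were left out). The submitters' processing notes name HISAT2 2.0.5, StringTie 1.3.3b and featureCounts 1.5.0-p3, and the genome build and strand setting are not given in the sources used here.

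The deposited FPKM are whole multiples of a step per gene, from which reads were recovered for 18896 of the 18896 genes above 0 in at least 4 libraries (100%). Precision rests on these reads, fewest in group Sham outside the mitochondrial genome. Each difference was tested with limma 3.58.1 in R 4.3.3 on log2(FPKM + 1), 2 groups a fit, with a trend in the empirical Bayes step, over genes that reached an FPKM of 1 in 3 or more of the 6 rats. The study used a count-based test. Here the deposited FPKM were tested, and the recovered reads served as an alternative. Fold changes on this scale understate the change of low genes. Calls needed an absolute log2 fold change over 1 with p under 0.05, as the study's methods set, and Benjamini-Hochberg adjustment was over all genes tested. Ratios to Cdh5, planned against the mean of Pecam1 and Cdh5, were tested between groups by exact permutation, two-sided. The tests were tried on simulated data. Alternatives were another pseudocount, other filters, 5 scalings, all 9 rats in 1 fit, no trend, voom on recovered reads, the replicate number as a block and each rat left out. Scaling to all recovered reads was added after the data were seen.

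Named beside the members are, from each list, at most 3 genes with the smallest p in MI vs. Sham and at most 2 in MI + DAPA (1st d) vs. MI, not all printed, and for each member the 3 genes with the highest r, of which 1 is not reported here. Cd34, Plvap, Mmrn1, Mcph1 and Atg9b were named after their values were seen. The members and lists were chosen with earlier results of these data known. Plots were drawn with matplotlib 3.10.9 in Python 3.11.15.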

Additional observations from a re-analysis of the deposited data

How the results depend on the processing

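In both comparisons with Sham the total of called members stayed within 1.5 times under each alternative run, but not its split: 5 lower and 1 higher as deposited became 2 and 2 with all reads and 1 and 3 with the same sum for MI, and 4 and 0 became 1 and 3, and 0 and 3, for treated rats. Leaving the mitochondrial genome out added Tek (-1.003) and Angpt1 (1.31) to the members called in MI vs. Sham. For treated against MI rats the total was 0 to 1 with each rat left out (Flt1 without MI replicate 1) and 3 with no fold threshold. Scaling changed directions. Rescaling to the same sum over all genes turned Cdh5 (0.12), Vwf (1.33), Flt1 (0.070) and Tek (0.57) in MI vs. Sham, Cdh5 (-0.053) and Vwf (-0.014) with treatment against MI, and Cdh5 (0.071), Flt1 (0.58) and Tek (0.62) in MI + DAPA (1st d) vs. Sham. Scaling to Cdh5 turned Vwf (1.20) and Tek (0.44) in MI vs. Sham and Flt1 (0.51) and Tek (0.55) in MI + DAPA (1st d) vs. Sham, and scaling to all reads turned the same 4 (0.89, 0.13, 0.29 and 0.33). These scalings move the median of all genes by their construction: all-gene calls in MI vs. Sham were 1390 lower and 1634 higher as deposited, 290 and 6099 with all reads, 198 and 9214 with the same sum, and 205 and 8052 with Cdh5. In MI + DAPA (1st d) vs. Sham they were 1090 and 1274 as deposited, 233 and 4433 with all reads and 154 and 6683 with the same sum. In MI + DAPA (1st d) vs. MI they were 147 and 126 as deposited and 557 and 54 with the same sum. With each rat left out, Vwf in MI + DAPA (1st d) vs. Sham ranged from -0.12 to 0.37, and relative to Cdh5 Flt1 in MI vs. Sham ranged from -0.18 to 0.16 (0.25 against 4 endothelial genes). In MI + DAPA (1st d) vs. MI relative to Cdh5, Vwf ranged from -0.26 to 0.32, Kdr from -0.0131 to 0.49, Tek from -0.0231 to 0.26 and Vegfa from -0.074 to 0.36, and the cause was not tested.

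The replicate numbers do not pair the rats (same-number correlations of -0.30 to 0.20), and with the replicate block 6, 0 and 4 members were called in the 3 comparisons, as without it, while all-gene calls in MI + DAPA (1st d) vs. MI were 146 lower and 71 higher. In that comparison the block took Tek and Nos3 past an unadjusted 0.05 (limma p of 0.0642 and 0.0806). Flt1 (0.0236) and Kdr (0.0490) were then under it. With 3 rats a group, differences under about the fold threshold pass only where rats vary little, and Angpt1 rests on as few as 5 reads.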

Other observations

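Vegfa and Angpt2 stood at opposite ends in rat 2 of each group. Sham rat 2 had the highest Vegfa (238 FPKM) and the lowest Angpt2 (6.38), treated rat 2 likewise had the highest Vegfa (62.4) and the lowest Angpt2 (10.4), and MI rat 2 had the lowest Vegfa (24.4) and the highest Angpt2 (25.1). The same 2 rats with high Vegfa had the lowest Kdr, Tek and Vwf of their groups, with Kdr at 35.6 in Sham rat 2 and 15.2 in treated rat 2. MI rat 2, with low Vegfa, also had the lowest Tek (20.4) and Vwf (28.7) of its group, so these did not follow Vegfa across the groups. The summed cardiomyocyte markers were 7220 in Sham rat 2, between the 5406 and 8022 of the other Sham rats, 1244 in MI rat 2, the lowest of its group, and 10292 in treated rat 2, the highest. The summed mural markers were lowest of their groups in Sham rat 2 (527) and treated rat 2 (728). This pattern was noticed in the values and was not tested.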
